A study of Mus musculus with 6 samples.

Results

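Dopamine neurons make, package, recapture and degrade their transmitter with a small set of proteins, and the transcripts of 9 of these proteins were measured in sorted neurons of the SNc (substantia nigra pars compacta), which supplies dopamine to the dorsal striatum. The 9 genes were taken by symbol: Th, Ddc, Gch1, Spr, Qdpr, Slc6a3, Slc18a2, Maoa and Maob. All 9 were present among the 23337 gene symbols measured, and all 9 passed the filter on low values, which required a 6-library mean no lower than 10 and kept 13175 genes for testing. The lowest mean among them was that of Maob, at 378.3.

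RNA came from sorted SNc neurons of adult C57BL/6 mice, and 3 Sox6+ libraries (GFP-positive neurons, which express the transcription factor Sox6) were compared with 3 Sox6- libraries (mCherry-positive neurons, which do not). Both groups carried the same alleles, Sox6-FSF-Cre, Th-2A-Flpo and RC-Frepe: a Cre recombinase at Sox6 that a Flp recombinase must first unlock, a Flp recombinase made with Th, and a reporter whose colour depends on both. Neurons of both colours were therefore collected by way of Th, so Th is not an independent marker of the sorted cells. Libraries carry the numbers 103, 825 and 1211 in both groups, and values below follow that order. The labels do not say that libraries came from separate animals, so p-values here reflect only how far these samples scatter, which may be technical.

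Values are normalized read counts, that is reads per gene divided by 1 factor per library. The libraries held between 10397924 and 12952768 reads in genes. Sox6 itself had values of 840.5, 461.2 and 389.0 in Sox6+ libraries, against 103.6, 18.1 and 36.2 in Sox6- libraries. Non-member markers of dopamine neurons (Pitx3, Nr4a2, En1, En2, Foxa2, Lmx1b, Ret, Drd2 and Kcnj6) were detected in both groups, and their summed values ran from 9048.4 to 13434.3 in Sox6+ libraries and from 4032.5 to 9853.1 in Sox6- libraries. Transcripts used as markers of other cells were present too. Whether these reads came from other cells or from the dopamine neurons themselves was not tested. The 3 GABAergic markers, Gad1, Gad2 and Slc32a1, summed to 6667.9, 5.69 and 1472.1 in Sox6+ libraries and to 11532.3, 1181.3 and 6300.1 in Sox6- libraries, and Gad1 and Gad2 were at 0 in Sox6+ library 825. The 2 glutamatergic markers, Slc17a6 and Slc17a7, summed to 999.3, 162.8 and 764.2 in Sox6+ libraries and to 2599.8, 2236.7 and 4815.2 in Sox6- libraries, with Slc17a7 at 0 in 4 of the 6. The 6 microglia and macrophage markers summed to 27589.5 in Sox6+ library 825, against at most 31.6 in each of the other 5 libraries, and most of it was Lyz2 at 26494.1. Tyrobp had 1035.1 and Csf1r 58.1 there, while Cx3cr1 had 2.28 and Aif1 and C1qa were at 0. Oligodendrocyte markers also stood highest in Sox6+ library 825, at 2071.3, against at most 251.3 elsewhere.

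Dopamine is made from tyrosine. Tyrosine hydroxylase (Th) adds a hydroxyl group to give L-DOPA, the rate-limiting step, and aromatic L-amino acid decarboxylase (Ddc) turns L-DOPA into dopamine. Th needs the cofactor tetrahydrobiopterin. GTP cyclohydrolase (Gch1) takes the first and limiting step of its synthesis, sepiapterin reductase (Spr) the last, and dihydropteridine reductase (Qdpr) regenerates it after use. The vesicular monoamine transporter VMAT2 (Slc18a2) loads dopamine into synaptic vesicles, and the dopamine transporter DAT (Slc6a3) takes released dopamine back up. The outer mitochondrial membrane enzymes monoamine oxidase A and B (Maoa and Maob) break it down.

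In GRCm38, Th lies on chromosome 7 from 142892752 to 142931128 (minus strand). Ddc lies on chromosome 11 from 11814101 to 11898144 (minus strand), and Gch1 on chromosome 14 from 47153895 to 47189413 (minus strand). Spr lies on chromosome 6 from 85130176 to 85137766 and Qdpr on chromosome 5 from 45434021 to 45450236, both on the minus strand. Slc6a3 lies on chromosome 13 from 73536747 to 73578672 and Slc18a2 on chromosome 19 from 59260896 to 59296012, both on the plus strand. Maoa and Maob are tail-to-tail neighbours on the X chromosome, Maoa from 16619698 to 16687818 (plus strand) and Maob from 16709282 to 16817366 (minus strand), with 21463 bases between their ends. An annotated antisense gene overlaps each of Ddc, Qdpr and Slc18a2, and 2 processed pseudogenes lie within the span of Gch1. The libraries were made with a stranded kit, but the strand setting of the read counting is not given in the sources used here. Whether reads of these genes and of their antisense partners were counted apart is therefore not known.

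Promoter windows of the genes that stood highest in Sox6+ neurons relative to Sox6- neurons, and of Th, against which they are set below, are shown so that the letters near their starts can be compared. Each runs from 250 bases before to 50 bases after the RefSeq start in GRCm38.p6, 5′ to 3′ on the gene's strand. Capitals mark exact matches, on either strand, to the cyclic AMP response element TGACGTCA or its core TGACG (which lies within the element), the NBRE bound by Nr4a factors AAAGGTCA, the bicoid motif of Pitx factors TAATCC, the Sox motif ACAATG and the TATA box TATAAA. In the second Ddc window the NBRE and TATA matches, both on the opposite strand, overlap.
Th, chr7:142899946-142900245, minus strand: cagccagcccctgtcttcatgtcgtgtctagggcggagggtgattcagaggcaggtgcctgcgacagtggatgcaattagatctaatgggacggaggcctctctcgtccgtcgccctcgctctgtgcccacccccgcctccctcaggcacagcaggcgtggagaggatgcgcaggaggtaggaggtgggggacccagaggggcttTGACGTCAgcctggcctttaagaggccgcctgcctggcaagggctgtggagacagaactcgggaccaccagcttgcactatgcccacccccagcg
Slc6a3, chr13:73536497-73536796, plus strand: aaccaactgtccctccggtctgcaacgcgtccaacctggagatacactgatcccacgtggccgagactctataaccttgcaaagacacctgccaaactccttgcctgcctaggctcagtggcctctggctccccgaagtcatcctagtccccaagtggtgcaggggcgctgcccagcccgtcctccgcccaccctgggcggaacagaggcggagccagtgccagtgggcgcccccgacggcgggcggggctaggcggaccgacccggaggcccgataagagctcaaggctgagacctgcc
Slc18a2, chr19:59260628-59260927, plus strand: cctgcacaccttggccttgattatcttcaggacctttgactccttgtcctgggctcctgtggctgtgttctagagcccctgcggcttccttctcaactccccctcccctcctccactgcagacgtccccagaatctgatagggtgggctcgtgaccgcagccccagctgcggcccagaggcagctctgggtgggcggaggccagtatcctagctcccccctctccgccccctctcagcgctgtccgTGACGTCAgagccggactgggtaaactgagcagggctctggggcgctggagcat
Ddc, chr11:11890359-11890658, minus strand: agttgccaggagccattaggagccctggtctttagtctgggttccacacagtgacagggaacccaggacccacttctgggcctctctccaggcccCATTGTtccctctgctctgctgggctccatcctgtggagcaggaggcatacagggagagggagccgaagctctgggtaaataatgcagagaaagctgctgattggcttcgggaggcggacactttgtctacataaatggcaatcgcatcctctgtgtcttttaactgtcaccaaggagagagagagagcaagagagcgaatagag
Ddc, chr11:11898095-11898394, minus strand: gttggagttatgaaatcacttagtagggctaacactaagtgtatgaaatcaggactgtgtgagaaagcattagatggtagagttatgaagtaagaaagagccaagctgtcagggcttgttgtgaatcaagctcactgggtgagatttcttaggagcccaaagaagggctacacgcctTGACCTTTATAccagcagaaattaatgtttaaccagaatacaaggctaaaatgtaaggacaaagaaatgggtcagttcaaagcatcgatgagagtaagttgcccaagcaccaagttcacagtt

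The promoter table held 9 windows for 8 of the genes; Maob is named only. The full cyclic AMP response element was found in the windows of Th, where it begins 45 bases before the start, and of Slc18a2, where it begins 4 bases before it. It occurs in 1.79% of all 32851 windows in the table. Its core also occurs in the Gch1 and Maoa windows, and in 20.8% of all windows. The NBRE was found in 1 Ddc window (1.51% of all windows), the Sox motif in the other Ddc window (12.6%), the bicoid motif in the Spr window (7.06%), and the TATA box in a Ddc and the Gch1 window (13.6%). None of these letters occurs in the Slc6a3 and Qdpr windows. A match describes the letters only.

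The comparison of Sox6+ with Sox6- neurons asked how the transcripts of dopamine handling differ between the SNc populations. Both enzymes of dopamine synthesis and both transporters averaged higher in Sox6+ neurons, from 1.93-fold for Th to 4.06-fold for Slc6a3, as did Gch1, at 2.23-fold, and Maoa, at 1.38-fold. Spr and Qdpr stood near 1, at 0.865-fold and 1.13-fold, and Maob stood at 0.603-fold. None of the 9 genes passed the test over all genes (limma on log2(value + 1), Benjamini-Hochberg adjusted p under 0.05), a threshold passed by 0.304% of tested genes. The edgeR quasi-likelihood test on recovered reads also called 0 of the 9. At an unadjusted limma p under 0.05, 3 of the 9 were higher in Sox6+ neurons, Slc18a2, Slc6a3 and Ddc, beside 5.21% of all tested genes, and 0 were lower, beside 6.17%. The median log2 difference of the 9 genes was 0.95, beside -0.02 over all tested genes. Fewer dopamine neurons in a sorted sample and less RNA of a gene per neuron cannot be told apart in bulk libraries.

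**Figure D1:**
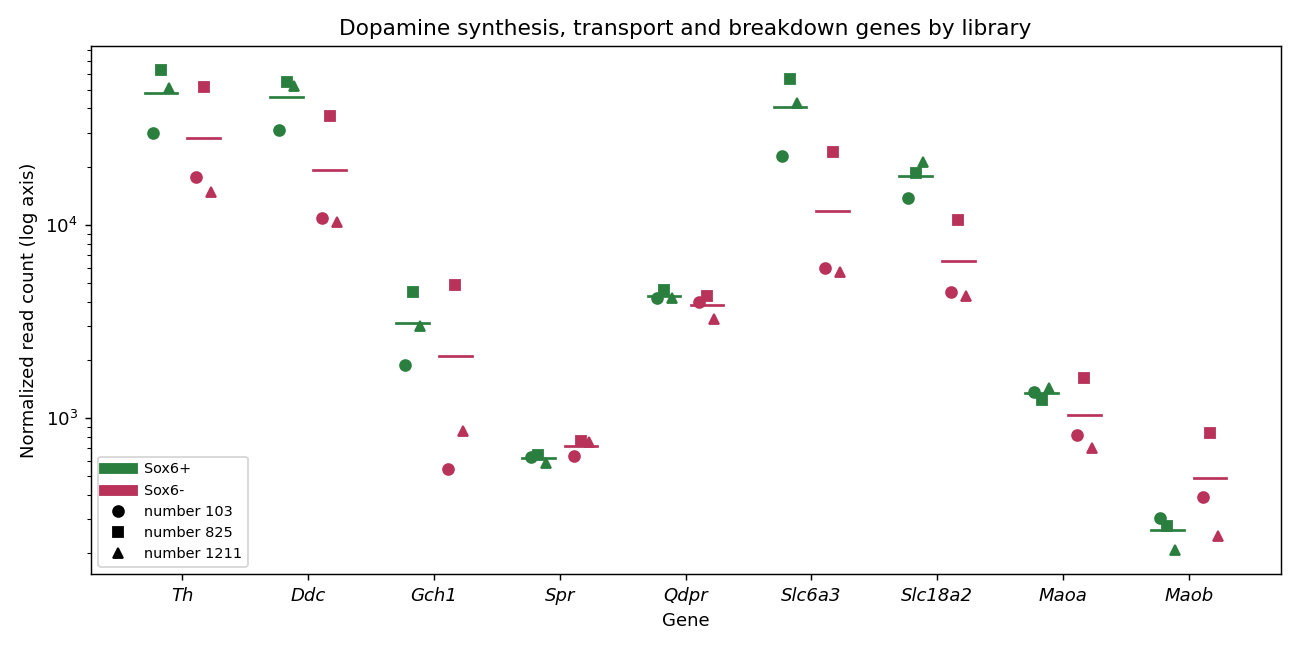
Normalized read counts (log axis) of the 9 genes in each library, Sox6+ left and Sox6- right for each gene, with 1 symbol per library number and a line at the mean of the 3 libraries. Sox6- library 825 (squares) was the highest of its group for each of the 9 genes, and Slc18a2 alone had groups that did not overlap.

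Th, the rate-limiting enzyme, had values of 29970.6, 63184.0 and 50858.3 in Sox6+ libraries, against 17583.9, 51430.7 and 14823.2 in Sox6- libraries. Sox6- library 825 lay among the Sox6+ values, and the other Sox6- libraries lay below all of them. The log2 difference was 0.95 (standard error 0.55, adjusted p = 0.568, limma). It was 1.50 without Sox6- library 825 (adjusted p = 0.0937, limma) and 0.61 without Sox6- library 1211. Ddc, the decarboxylase, had values of 30897.9, 54634.7 and 52328.6 in Sox6+ libraries, against 10791.7, 36607.7 and 10325.1 in Sox6- libraries. The groups overlapped through the same Sox6- library, and the log2 difference was 1.48 (standard error 0.556, adjusted p = 0.414, limma). Without Sox6- library 825 the difference of Ddc was 2.08 with an adjusted p of 0.0295 (limma), over a range of adjusted p from 0.0295 to 0.964 across the alternatives.

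Sox6- library 825 also held the fewest GABAergic marker reads of its group, with a sum of 1181.3, against 11532.3 and 6300.1 in Sox6- libraries 103 and 1211. Among Sox6+ libraries the order was alike: library 103 had the lowest Th and the highest GABAergic sum, 6667.9, and library 825 the highest Th and a sum of 5.69. Glutamatergic marker sums reached at most 999.3 in Sox6+ libraries and were at least 2236.7 in Sox6- libraries. The part of GABAergic and glutamatergic neurons in these values was not tested. Without Sox6+ library 825, which held the high Lyz2 and Tyrobp values, the log2 differences were 0.72 for Th, 1.33 for Ddc, 1.74 for Slc6a3 and 1.54 for Slc18a2.

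Slc6a3, the dopamine transporter, had values of 22785.7, 56609.2 and 42438.8 in Sox6+ libraries, against 5970.0, 23881.5 and 5720.4 in Sox6- libraries. The highest Sox6- value passed the lowest Sox6+ value narrowly, and each Sox6+ library lay above its Sox6- counterpart of that number. This was the largest difference among the 9 genes, a log2 difference of 2.02 (standard error 0.685, adjusted p = 0.389, limma). Slc18a2, the vesicular transporter, had values of 13767.9, 18435.5 and 21200.0 in Sox6+ libraries, against 4509.9, 10597.3 and 4280.1 in Sox6- libraries. It was the 1 gene of the 9 whose groups did not overlap, as were 7.86% of all tested genes in that direction. Its log2 difference was 1.57 (standard error 0.357, unadjusted p = 0.00292, adjusted p = 0.171, limma).

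Slc18a2 was also the 1 gene of the 9 called in the authors' deposited table, with a log2 fold change of -1.46 for Sox6- over Sox6+ neurons and an adjusted p of 0.000655, beside 1.25% of the genes in that table called higher in Sox6+ neurons. Slc6a3 had an adjusted p of 0.329 in the authors' deposited table. That call of Slc18a2 depended on which genes entered DESeq2. On recovered reads of all genes the adjusted p was again 0.000655, and on those of the 13175 tested genes it was 0.0811 (DESeq2), with a log2 difference of 1.46 each time. Without Sox6- library 825 limma called Slc18a2 too (standard error 0.196, adjusted p = 0.0253), and its adjusted p over all alternatives ran from 0.000655 to 0.964.

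The cofactor genes did not share one pattern. Gch1 had values of 1890.2, 4487.6 and 3001.5 in Sox6+ libraries, against 548.7, 4875.2 and 858.8 in Sox6- libraries. Its highest and its lowest values both lay in Sox6- libraries, 8.88-fold apart, the widest spread within a group among the 9 genes. The log2 difference was 1.16 (standard error 0.902, adjusted p = 0.674, limma). Without Sox6- library 825 it was 2.10 (adjusted p = 0.0691, limma), and without Sox6- library 103 it was 0.52.

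Spr, the last enzyme of cofactor synthesis, was nearly flat, with values of 629.4, 643.4 and 585.9 in Sox6+ libraries and of 636.0, 766.4 and 753.1 in Sox6- libraries. Its log2 difference was -0.21 (standard error 0.176, adjusted p = 0.682, limma). Qdpr, which recycles the cofactor, had values of 4170.0, 4582.1 and 4179.7 in Sox6+ libraries and of 3973.6, 4279.0 and 3259.9 in Sox6- libraries. Its log2 difference was 0.18 (standard error 0.144, adjusted p = 0.674, limma). Over all 6 libraries the highest value of Spr was 1.31 times its lowest and that of Qdpr 1.41 times, against 9.9 times for Slc6a3, 5.29 for Ddc, 4.95 for Slc18a2 and 4.26 for Th.

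The monoamine oxidases differed in direction. Maoa had values of 1361.4, 1245.7 and 1438.8 in Sox6+ libraries, against 816.4, 1608.3 and 703.0 in Sox6- libraries. The Sox6+ values were close to each other and lay between those of Sox6- library 825 and the other Sox6- libraries, and the log2 difference was 0.47 (standard error 0.284, adjusted p = 0.564, limma). It was 0.83 without Sox6- library 825 and 0.23 without Sox6- library 1211. Maob had values of 305.8, 277.8 and 207.9 in Sox6+ libraries, against 393.3, 839.9 and 244.8 in Sox6- libraries. The groups overlapped, each Sox6+ library lay below the Sox6- library of its number, and the log2 difference was -0.73 (standard error 0.413, adjusted p = 0.532, limma). It was -0.25 without Sox6- library 825 and -1.14 without Sox6- library 1211. Astrocytes and serotonergic neurons are known for high Maob. The 5 astrocyte markers summed to 0, 3.42 and 4.62 in Sox6+ libraries, against 75.8, 12.1 and 51 in Sox6- libraries, with Gja1 at 0 in all 6. These low sums rested on different genes. Slc1a3 alone made up the 75.8 of Sox6- library 103 and was at 0 in Sox6- library 825. Aqp4 went the other way, read only in Sox6+ library 1211, at 4.62. Like Maob, the astrocyte sum was lower in each Sox6+ library than in the Sox6- library of its number. Within the groups the order differed. Among Sox6- libraries Maob was highest in library 825, at 839.9, where the astrocyte sum was lowest, at 12.1. Among Sox6+ libraries Maob was highest in library 103, at 305.8, where the astrocyte sum was 0. The 3 serotonergic markers summed to 55.2, 50.1 and 25 in Sox6+ libraries, against 25.9, 0 and 42.7 in Sox6- libraries. The part of these cells in the Maob values was not tested.

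**Figure D2:**
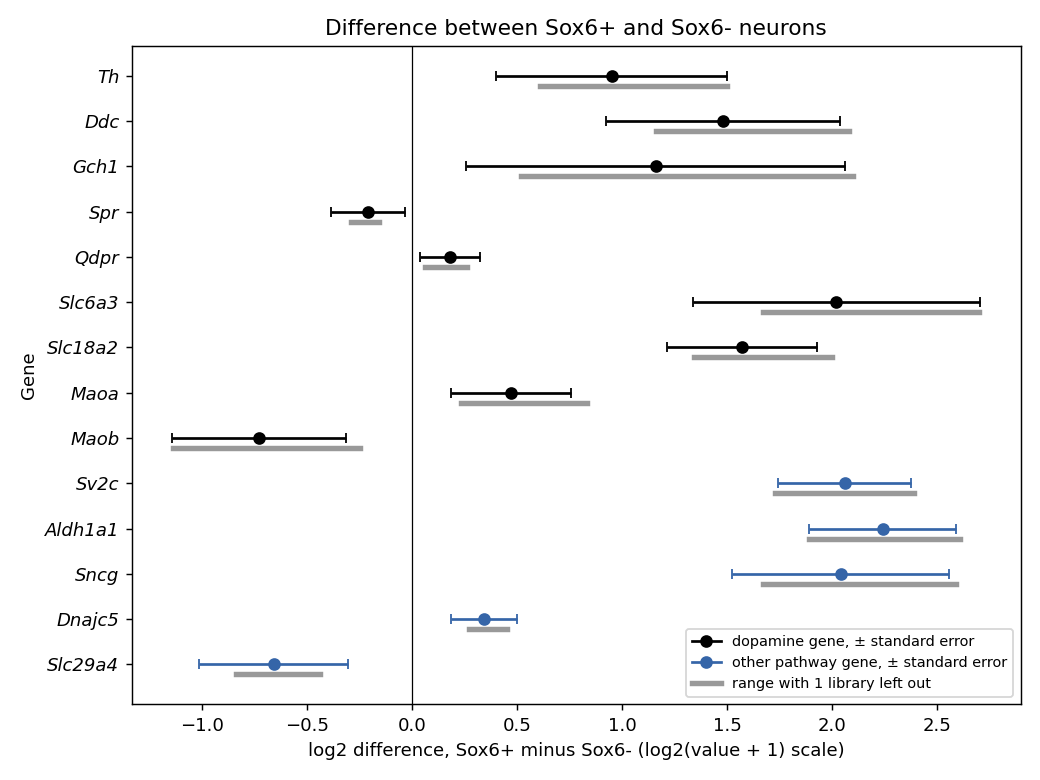
Log2 difference of Sox6+ minus Sox6- neurons on the log2(value + 1) scale for the 9 dopamine genes (black) and 5 other genes of the pathway (blue), with its standard error, and below each point, in grey, the range of the difference when 1 library is left out. Among the 9 genes the ranges of Ddc, Gch1 and Slc6a3 reach furthest to the right, to 2.08, 2.10 and 2.70, each without Sox6- library 825.

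A ratio of 2 genes within a library does not depend on that library's normalization factor, and 10 ratios were compared. Set against Th, the dopamine transporter stood about 2-fold higher in Sox6+ than in Sox6- libraries, and within each group the ratio varied less than either gene did. Slc6a3 over Th was 0.76, 0.896 and 0.834 in Sox6+ libraries, against 0.34, 0.464 and 0.386 in Sox6- libraries. The groups stood well apart, including Sox6- library 825, whose Th of 51430.7 exceeded that of Sox6+ libraries 103 and 1211. The mean log2 ratio was 1.07 higher in Sox6+ neurons, with a standard error of 0.148, or 2.11-fold. It was higher by 1.16, 0.95 and 1.11 between libraries of the same number, and stayed between 0.97 and 1.19 when any 1 library was left out. Without Sox6+ library 825, the one with high Lyz2 and Tyrobp, it was 1.02.

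Ddc over Th was 1.03, 0.865 and 1.03 in Sox6+ libraries, against 0.614, 0.712 and 0.697 in Sox6- libraries. These groups did not overlap either, with a log2 difference of 0.53 and a standard error of 0.107, or 1.44-fold. Slc18a2 over Th was 0.459, 0.292 and 0.417 in Sox6+ libraries, against 0.256, 0.206 and 0.289 in Sox6- libraries. Here the lowest Sox6+ ratio, in library 825, barely exceeded the highest Sox6- ratio, in library 1211, and the log2 difference was 0.62 (standard error 0.245).

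Maob relative to Maoa differed the other way. Maob over Maoa was 0.225, 0.223 and 0.145 in Sox6+ libraries, against 0.482, 0.522 and 0.348 in Sox6- libraries. The groups did not overlap, and the difference was alike between libraries of each number, at -1.10, -1.22 and -1.27 on the log2 scale. The mean log2 difference came to -1.20, standard error 0.275, so the ratio of Maob to Maoa was 2.29-fold lower in Sox6+ neurons. Maob over Th was 0.0102, 0.0044 and 0.00409 in Sox6+ libraries, against 0.0224, 0.0163 and 0.0165 in Sox6- libraries. These groups did not overlap, and the log2 difference was -1.68 (standard error 0.448).

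**Figure D3:**
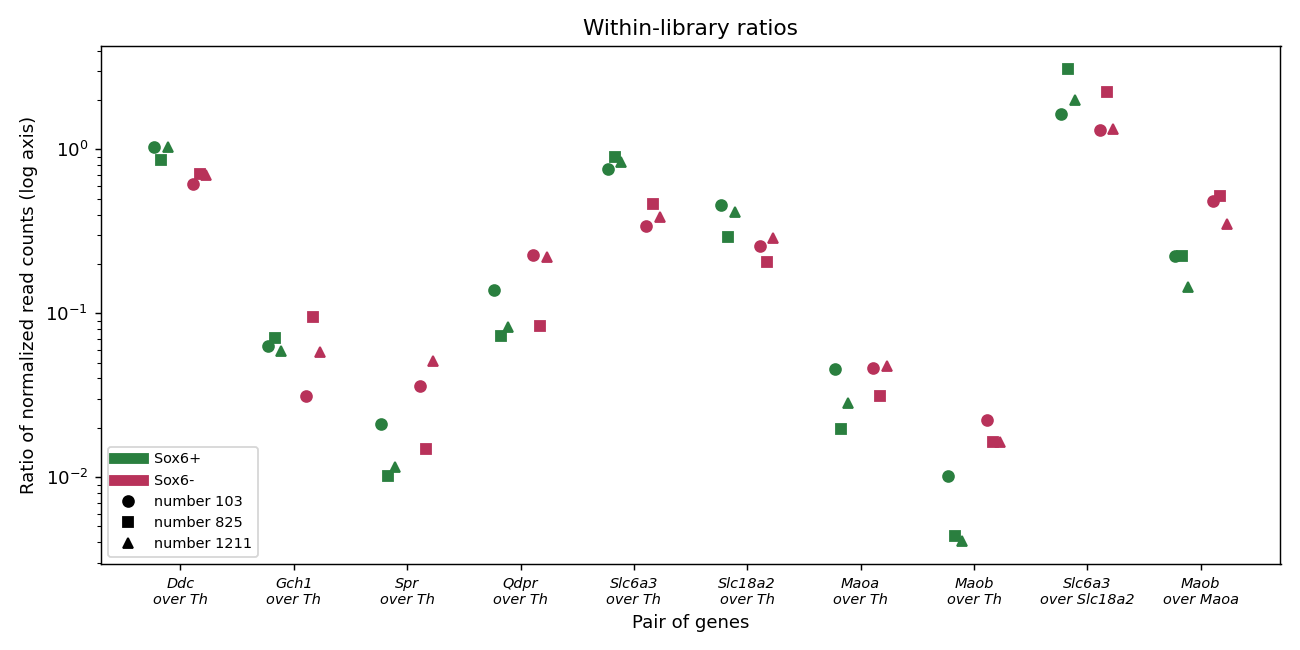
Ratios of normalized read counts (log axis) for 10 pairs of genes in each library, Sox6+ left and Sox6- right for each pair, with 1 symbol per library number. The groups stand apart for Ddc, Slc6a3, Slc18a2 and Maob over Th and for Maob over Maoa, and overlap for the other 5 pairs.

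The other 5 ratios overlapped between the groups. Gch1 over Th was 0.0631, 0.071 and 0.059 in Sox6+ libraries, against 0.0312, 0.0948 and 0.0579 in Sox6- libraries, so that the Sox6- libraries held both the lowest and the highest ratio. The log2 differences were 0.21 for Gch1, -1.16 for Spr, -0.77 for Qdpr and -0.48 for Maoa over Th, with standard errors of 0.47, 0.618, 0.555 and 0.4. Slc6a3 over Slc18a2 was 1.65, 3.07 and 2 in Sox6+ libraries, against 1.32, 2.25 and 1.34 in Sox6- libraries. It was higher in Sox6+ neurons at each number, yet the groups overlapped, and the log2 difference was 0.45 (standard error 0.366). The transporters were therefore not shown to differ from each other.

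In an exact two-sided permutation test over libraries, each of the 5 ratios whose groups did not overlap had p = 0.1, the smallest that 3 libraries against 3 can give, and an adjusted p of 0.2 over the 10 ratios. No ratio could have passed 0.05 by this test. With Th itself averaging higher in Sox6+ neurons, most genes had a lower ratio to Th there, and the median log2 difference of a ratio to Th was -0.97 over the 13174 other tested genes. Against that background, 0.562% of these genes had a ratio to Th that was higher in Sox6+ neurons without overlap, as Ddc, Slc6a3 and Slc18a2 had, and 8.04% had one that was lower without overlap, as Maob had. The higher ratio was not particular to Ddc, Slc6a3 and Slc18a2, which were among 74 such genes. Sncg, Itgae, Pitx3, Kcnj6 and Slc10a4, named below as nearest to Slc6a3 in profile, also had ratios to Th that were higher in Sox6+ neurons without overlap. They were chosen for likeness to Slc6a3 in these same libraries, so their ratios are no separate support. Ret, another marker of dopamine neurons, had such a ratio too, though its groups stood only narrowly apart. Ratios to Th of Nr4a2, En1, En2, Foxa2, Drd2 and Aldh1a1 overlapped. A limma test of ratios to Th across all genes, added after the data were seen, gave Slc6a3 an unadjusted p of 0.112 and an adjusted p of 0.466, and Maob an unadjusted p of 0.0343 and an adjusted p of 0.422.

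**Figure D4:**
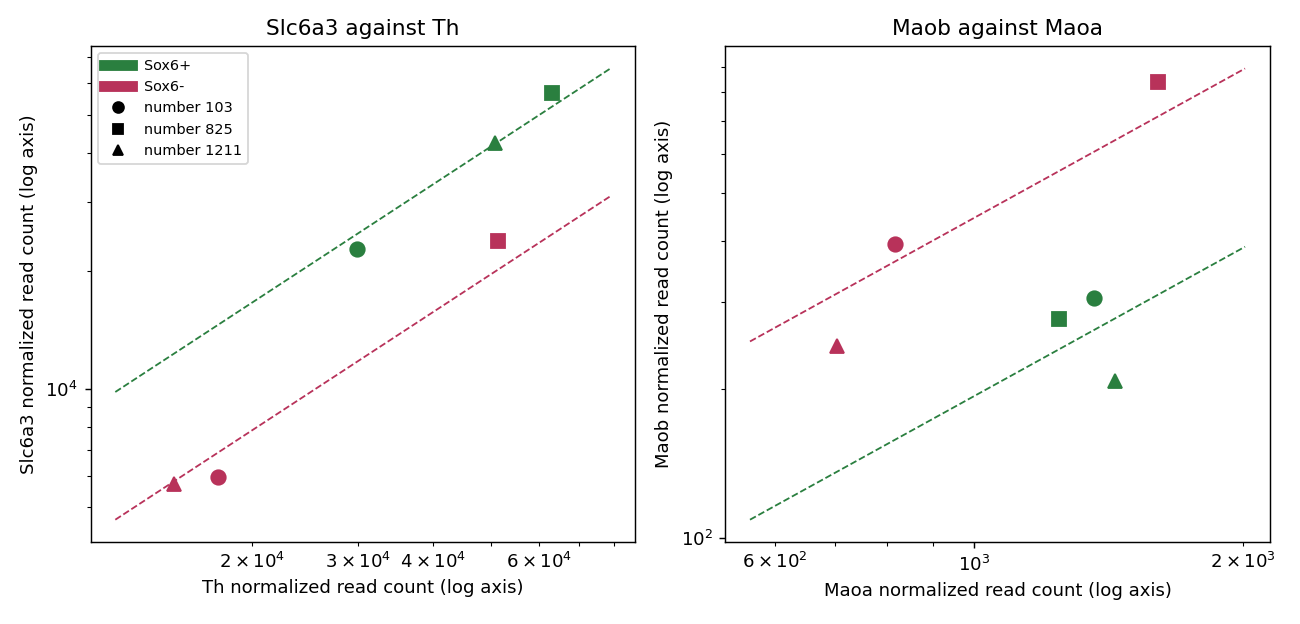
Normalized read counts (log axes) of Slc6a3 against Th and of Maob against Maoa, 1 point per library, with dashed lines at the mean log2 ratio of each group. The 3 Sox6+ libraries lie along a line above the Sox6- line for Slc6a3 against Th, 2.11-fold apart, and below it for Maob against Maoa, 2.29-fold apart.

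Levels of different genes were compared per kilobase of the principal GENCODE M21 transcript, such as 1829 bases for Th and 3456 bases for Slc6a3. Per kilobase, Th ranked first in both groups, with a level of 26246.2 ± 9179.7 for Sox6+ and 15279.4 ± 11145.5 for Sox6- libraries (SD, n = 3 each). Ddc ranked second, with a level of 22771.9 ± 6486.4 in Sox6+ and 9535.0 ± 7453.6 in Sox6- neurons. Within libraries, Ddc per kilobase was 0.934, 0.784 and 0.933 of Th in Sox6+ libraries, against 0.556, 0.645 and 0.631 in Sox6- libraries, so Th was the higher of the pair in all 6. Slc6a3 came next in both groups, with a level per kilobase of 11750.9 ± 4914.8 for Sox6+ and 3430.9 ± 3013.3 for Sox6- libraries. In Sox6- libraries 103 and 1211, at 1727.4 and 1655.2 per kilobase, it lay below Qdpr, at 2879.4 and 2362.3, so its rank there rested on library 825. Slc18a2 and Qdpr exchanged places: Slc18a2 had 4703.1 ± 992.5 and Qdpr 3123.6 ± 170.4 per kilobase in Sox6+ neurons, against 1707.4 ± 946.6 for Slc18a2 and 2780.8 ± 379.0 for Qdpr in Sox6- neurons.

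Gch1 had a level per kilobase of 1126.6 ± 469.6 in Sox6+ and 754.7 ± 869.7 in Sox6- neurons, and Spr came after it at 503.7 ± 24.4 for Sox6+ and 584.1 ± 58.3 for Sox6- libraries. The place of Gch1 above Spr in Sox6- neurons rested on library 825: Gch1 had 197.7, 1756.8 and 309.5 per kilobase in the Sox6- libraries, against 517.1, 623.1 and 612.3 for Spr. Maoa followed at 323.7 ± 23.3 for Sox6+ and 250.2 ± 118.4 for Sox6- libraries. Maob was lowest, at 109.4 ± 20.9 for Sox6+ and 204.4 ± 128.5 for Sox6- libraries. Within libraries it was below Maoa in all 6. Per kilobase Maob reached 0.388, 0.385 and 0.25 of Maoa in Sox6+ libraries, against 0.833, 0.903 and 0.602 in Sox6- libraries. Together the 9 genes took 0.92%, 1.72% and 1.47% of all reads in genes in Sox6+ libraries, against 0.404%, 1.19% and 0.373% in Sox6- libraries.

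The profile over the 6 libraries was compared by the root mean square difference of centred log2 values, as a description with no test. Phldb2, Chrna6, Cadps2, Lmo4 and Kctd6 were nearest to Th, at differences of 0.147 to 0.193 on the log2 scale. Chrna6, a nicotinic acetylcholine receptor subunit of dopamine neurons, had values of 7636.7, 16461.0 and 14312.6 in Sox6+ libraries, against 3787.5, 10964.9 and 3893.4 in Sox6- libraries. Among the dopamine genes, Ddc was nearest to Th at 0.286, followed by Slc18a2 at 0.397, Maoa at 0.467 and Gch1 at 0.481, while Maob was farthest at 0.951. Sncg, Itgae, Pitx3, Kcnj6 and Slc10a4 were nearest to Slc6a3, at 0.19 to 0.342. Pitx3, a transcription factor of midbrain dopamine neurons, had values of 533.7, 1126.2 and 816.9 in Sox6+ libraries, against 183.2, 665.7 and 172.5 in Sox6- libraries.

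Of 37 other genes of dopamine and tetrahydrobiopterin handling, 28 had enough reads to be tested. Limma called 1 higher, Sv2c, and 0 lower, beside 0.304% of all tested genes called in either direction. At an unadjusted limma p under 0.05, 4 were higher and 0 lower, beside 5.21% and 6.17% of all tested genes. The groups did not overlap for 4 higher and 1 lower, beside 7.86% and 9.19% of all tested genes. The median log2 difference of the 28 was 0.25, beside -0.02 over all tested genes. Sv2c, a synaptic vesicle protein, rose, with 510.0, 802.8 and 1274.3 in Sox6+ libraries, against 194.7, 183.3 and 199.4 in Sox6- libraries, a log2 difference of 2.06 (standard error 0.316, adjusted p = 0.0368, limma). The call of Sv2c was lost without any 1 of Sox6+ libraries 825 and 1211 or of the Sox6- libraries, with adjusted p from 0.0764 to 0.199, and its adjusted p over all alternatives ran from 2.73e-07 to 0.628.

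Aldh1a1, a retinaldehyde dehydrogenase that also oxidizes the aldehyde of dopamine, had values of 45219.2, 55488.7 and 66304.8 in Sox6+ libraries, against 19548.7, 11200.6 and 7226.6 in Sox6- libraries (log2 difference 2.24, standard error 0.349, adjusted p = 0.0702, limma). Unlike Th, it was not highest within the Sox6- group in library 825. Sncg, gamma-synuclein, had values of 8884.6, 17329.8 and 14012.3 in Sox6+ libraries, against 2463.6, 6741.3 and 1879.0 in Sox6- libraries. The groups did not overlap, and the log2 difference was 2.04 (standard error 0.515, adjusted p = 0.236, limma). Neither passed in limma with all 6 libraries weighted equally. Aldh1a1 was called with library weights (adjusted p = 0.0317, limma) and without Sox6- library 103 (adjusted p = 0.0113, limma), and Sncg without Sox6- library 825 (adjusted p = 0.0253, limma). Over all alternatives the adjusted p ran from 1.05e-09 to 0.574 for Aldh1a1 and from 0.0253 to 0.964 for Sncg. In the authors' deposited table Aldh1a1 was called, with an adjusted p of 2.35e-09, and Sncg was not, with an adjusted p of 0.109. Dnajc5, a synaptic vesicle chaperone, and Slc29a4, a low-affinity monoamine transporter of the plasma membrane, also had groups that did not overlap. Their log2 differences were 0.34 and -0.66, with adjusted p of 0.447 and 0.509 (limma).

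The remaining genes of tetrahydrobiopterin synthesis and recycling did not pass either: 0 of the 6 tested had an unadjusted p under 0.05 or groups apart, and their median log2 difference was 0.09. Pts, which acts between Gch1 and Spr, had values of 1496.6, 1587.3 and 1546.0 in Sox6+ libraries, against 1254.8, 1515.6 and 1048.9 in Sox6- libraries (log2 difference 0.29, adjusted p = 0.542, limma). Enzymes that carry monoamine synthesis beyond or beside dopamine were near 0: Dbh, which makes noradrenaline, had at most 0.959 in any library, Pnmt was at 0 in all 6, and Tph2, the neuronal enzyme of serotonin synthesis, had values of 55.2, 27.3 and 18.5 in Sox6+ libraries and of 25.9, 0 and 31.5 in Sox6- libraries. The noradrenaline transporter Slc6a2 had at most 0.987.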

How the data were processed

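Libraries were made from total RNA with a stranded TruSeq mRNA kit, per the labels' protocols. FastQC, cutadapt, STAR and HTSeq are listed in the submitters' processing notes, beside DESeq2 and builds GRCm38 and mm10, with no version or setting. The authors deposited normalized signal values of 6 libraries, beside a DESeq2 table with log2 fold changes whose sign runs Sox6- over Sox6+, a score (the test statistic) and p-values. The signal is a read count divided by 1 factor per library: 100.0% of values above 0 were whole multiples of the library's smallest step within 0.01, with steps from 0.9241 to 1.1387, so reads were recovered.

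Since the values are not raw counts, limma (3.58.1, R 4.3.3) on log2(value + 1), moderated robustly with a trend, was the main test, 2-sided and without a block. It covered genes with a mean of at least 10, and 13175 were tested. Fold changes are on that scale and understate low genes. edgeR 4.0.16 and DESeq2 1.42.0 on recovered reads were alternatives. Ratios were compared with exact permutation tests. No 2 libraries agreed within sampling noise (chi-square per gene at least 34.4). Same-numbered libraries' deviations from their group means correlated at 0.27, 0.17 and 0.08, against at most 0.02 for libraries of different numbers. Pairing required every same-number correlation to be over 0.1, so the numbers were not taken to pair them. Positions and lengths come from GENCODE M21 (GRCm38) and promoters from RefSeq (GRCm38.p6).

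The genes and lists were chosen with earlier results of these data known. All 9 genes are named. Other pathway genes are named by rule if called by limma or in the authors' deposited table, or if their groups did not overlap at a mean of at least 50, up to 10 by limma p. Nearest genes are the 5 closest to each of Th and Slc6a3 with such a mean, leaving out predicted genes, Rik clones and pseudogenes. Pts, Dbh, Pnmt, Tph2 and Slc6a2 were chosen for description after their values were seen.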

Additional observations from a re-analysis of the deposited data

How the results depend on the processing

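The direction of each of the 9 genes and of the 5 pathway genes named by rule held under every fit of the genes' own values. In the limma fits of ratios to Th, Qdpr and Maoa turned lower in Sox6+ neurons, at log2 differences of -0.77 and -0.48. Limma called 0 of the 9 genes, in either direction; 1 was called higher with DESeq2 on the reads of all genes (Slc18a2), an alternative chosen after seeing the data, and 0 to 2 were with 1 library or number left out, the 2 (Ddc and Slc18a2) without Sox6- library 825. Of the pathway genes 1 was called higher: 0 were with no filter, without trend or robust moderation, or with edgeR; 2 with library weights and with DESeq2, filtered or not; and 0 to 2 with a library or number left out. The ratio of Ddc over Th differed by 0.40 when the mean of dopaminergic markers replaced Th; other ratios moved by less than the spread between libraries in the alternatives that kept all 6. The log2 difference of Gch1 over Th changed sign within that spread, from 0.21 to -0.20 with the ratio of summed reads. With libraries left out, Gch1 over Th ran from -0.21 to 0.59. Of the 5 genes nearest to Th or Slc6a3, 1 to 4 were shared with 1 library left out. The causes were not tested.

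With the library number as a replicate block limma called 0 of the 9 genes and 1 pathway gene. Over all genes it called 134 higher and 133 lower, against 17 and 23 without the block. In deviations from the group means, each library correlated best with its own number in the other group. In the log2 values themselves this did not hold for Sox6+ library 1211, at 0.92 with Sox6- library 825 and 0.885 with Sox6- library 1211. For Slc6a3 over Th the blocked difference was 1.07, with an exact sign-flip p of 0.25, the smallest 3 pairs can give. Over all genes, calls higher and lower were 1 and 5 with edgeR (63 and 57 with the block), 171 and 216 with DESeq2 (181 and 230 unfiltered), 95 and 111 with library weights, 34 and 35 with a pseudocount of 8, 30 and 39 with quantile normalization, 7 and 14 with no filter, and 4 and 20 without trend or robust moderation; with 1 library or number left out they ran from 0 to 59 and from 1 to 102. Each group held 3 libraries, and these differed by more than sampling noise. The part of depth in these counts was not tested.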
